A study of Homo sapiens with 24 samples.

Results

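The genes described here are 10 secreted inflammatory mediators: IL1A, IL1B, IL6, IL8, CXCL1, CXCL2, CXCL3, CCL20, CSF2 and LIF. They were chosen by name, as every non-control spot of 24 two-colour expression arrays that carries one of these symbols, with IL8 as the older symbol of CXCL8. They make up 10 of the 44639 gene names printed on either array design, and 15 of the 42405 gene probes of the larger design (16 arrays) and 15 of the 50599 of the smaller (8 arrays).

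IL1A and IL1B encode the interleukin 1 cytokines, which act through the IL1R1 receptor and its partner IL1RAP to activate the transcription factor NF-κB. IL6 and LIF encode cytokines that signal through the shared receptor chain IL6ST to STAT3. IL8, CXCL1, CXCL2 and CXCL3 encode chemokines that attract neutrophils through CXCR1 and CXCR2, CCL20 draws cells that carry CCR6, and CSF2 encodes the growth factor GM-CSF. Many of these genes are direct NF-κB targets, and carcinoma cells as well as leukocytes can transcribe them.

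Each array paired RNA of treated cells, in the Cy5 channel, with RNA of control cells of the same line, in the Cy3 channel, and dyes were not swapped. PC3, DU145 and LNCap are prostate cancer lines, A498 and 786O renal cell carcinoma lines, and FaDu and SAS squamous carcinoma lines of the head and neck. The soy isoflavone genistein was given to PC3 and DU145, with untreated cells as controls in the labels (the study's methods name the solvent as vehicle). The flavone wogonin was given to SAS and FaDu with DMSO as control, and the chemokine CXCL10 to 786O for 12 h or 24 h with untreated controls. Small interfering RNAs against CAV2 (A498, 786O), LAMB3 (FaDu, SAS) and GOLM1 (DU145, PC3) were compared with a control siRNA. The microRNAs miR-145 (PC3, DU145, LNCap), miR-375 (FaDu), miR-23b, miR-24 and miR-27b (PC3), miR-29a (SAS), miR-143 (DU145, PC3) and miR-27b (786O, A498) were compared with a control miRNA. Each treatment, line and time had 1 array, so the lines stood as replicates of a treatment. For CXCL10, given to 786O alone, the 12 h and 24 h arrays stood as replicates. Nothing in the labels says that any condition was repeated in a separate culture of the same line. RNA was taken from whole cultures, in which fewer expressing cells cannot be told apart from less RNA per cell.

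The share of gene spots well above background, by the flag of the scanner software, ran from 53.2% to 68.9% per channel and array, and 0 gene spots were saturated. The silenced genes read lower on their own arrays: CAV2 by log2 ratios of -3.80 in A498 and -3.20 in 786O, GOLM1 by -3.02 in DU145 and -4.15 in PC3, and LAMB3 by -2.50 in FaDu but -0.89 in SAS. A probe for KLK3, which encodes the prostate-specific antigen of luminal cells, read 122777 in the LNCap control channel and 5.04 and 2.78 in the PC3 and DU145 control channels of the miR-145 arrays. On the DU145 array the same probe read 167 in the treated channel, 0.175% of the 95785 it read in treated LNCap cells. The control channels of the miR-23b, miR-24 and miR-27b arrays of PC3 differed by a median of 0.0737 to 0.0759 on the log2 scale, against 0.336 to 0.408 between them and the other PC3 control channels of that array design, and were counted as 1 control sample. Squamous markers KRT14 and KRT6A read 365 to 2026 in the PC3 control channels of the smaller design and at most 19.8 in those of the larger. They belong to a list of 5 squamous markers, of which 2 were well above background in each of those smaller-design channels. The rest of the list was dim there. PTPRC, the pan-leukocyte marker, read between 8.87 and 158 in every control and treated channel. It is 1 of 4 leukocyte markers on each array, and others read higher. Their summed control signal ran from 97.9 (miR-145 DU145) to 2481 (miR-27b 786O), and was 2361 in SAS on the wogonin array.

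The promoters of the 6 members with κB matches are shown because many of these genes are known NF-κB targets. Promoter sequence came from RefSeq (GRCh38.p14), where 9 of the 10 members had an entry, and each line gives the stretch from 150 to 31 bases before the transcription start, 5′ to 3′ on the gene's strand. Capitals mark matches to the κB element GGNNTTTCC on either strand or to the AP-1 element TGANTCA, and no match overlaps another.
IL6 (chr7:22727050-22727169, plus strand): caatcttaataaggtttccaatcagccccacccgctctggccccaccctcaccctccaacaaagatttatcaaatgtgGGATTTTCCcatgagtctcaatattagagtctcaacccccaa
CXCL8, the gene named IL8 on the arrays (chr4:73740419-73740538, plus strand): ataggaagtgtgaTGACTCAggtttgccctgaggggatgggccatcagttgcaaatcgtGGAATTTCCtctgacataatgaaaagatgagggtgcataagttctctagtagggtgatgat
CXCL1 (chr4:73869243-73869362, plus strand): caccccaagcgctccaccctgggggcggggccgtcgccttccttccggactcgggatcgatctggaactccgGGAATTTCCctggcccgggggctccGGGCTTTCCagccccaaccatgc
CXCL2 (chr4:74099226-74099345, minus strand): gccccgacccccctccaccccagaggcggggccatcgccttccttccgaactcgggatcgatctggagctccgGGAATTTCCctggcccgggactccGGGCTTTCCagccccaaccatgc
CXCL3 (chr4:74038720-74038839, minus strand): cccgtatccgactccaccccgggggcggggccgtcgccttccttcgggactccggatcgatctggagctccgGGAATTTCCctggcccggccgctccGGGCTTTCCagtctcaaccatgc
CCL20 (chr2:227813692-227813811, plus strand): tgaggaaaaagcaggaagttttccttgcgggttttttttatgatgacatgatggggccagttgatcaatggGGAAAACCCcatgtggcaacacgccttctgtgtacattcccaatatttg

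The κB letters were found in 6.26% of 35116 RefSeq promoters (250 bases before to 50 after the start), and the AP-1 letters in 7.71%. IL6, CXCL8 and CCL20 each held 1 κB match, starting 72, 91 and 79 bases before the start, and CXCL8 also held an AP-1 match at 137 bases. CXCL1, CXCL2 and CXCL3 each held a pair of κB matches, GGAATTTCC and GGGCTTTCC, the second 53 bases before the start in all 3 genes. The CXCL1 and CXCL3 windows had the same letter at 103 of 120 positions. IL1A held AP-1 matches only, and IL1B and CSF2 held neither motif in the 300 bases searched. These are matches of letters and not measured binding sites.

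A gene was taken as tested on an array where its brightest probe cleared the background flag in the Cy3 or the Cy5 channel. Of the 202 pairs of a member and an array that were tested, 40 had a log2 ratio of treated over control above 1 and 19 had one below -1, against 5.45% and 4.05% of the gene and array pairs over all genes. Of the 59 pairs past 1 in either direction, 48 had both channels above background. The rest were upward pairs with a dim control, tested only through the treated channel, so nothing is read from the upward count. The 19 became 33 with the mean of the other treatments on the slide subtracted and 12 with normexp background correction. IL6 and IL8 each passed that limit upward on 6 arrays, CXCL1 and CCL20 on 5 each, CXCL2 and CXCL3 on 4, CSF2 and LIF on 3, and IL1A and IL1B on 2. With the miR-145 DU145 array left out, an alternative chosen after seeing the data, the counts were 38 and 18.

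**Figure D1:**
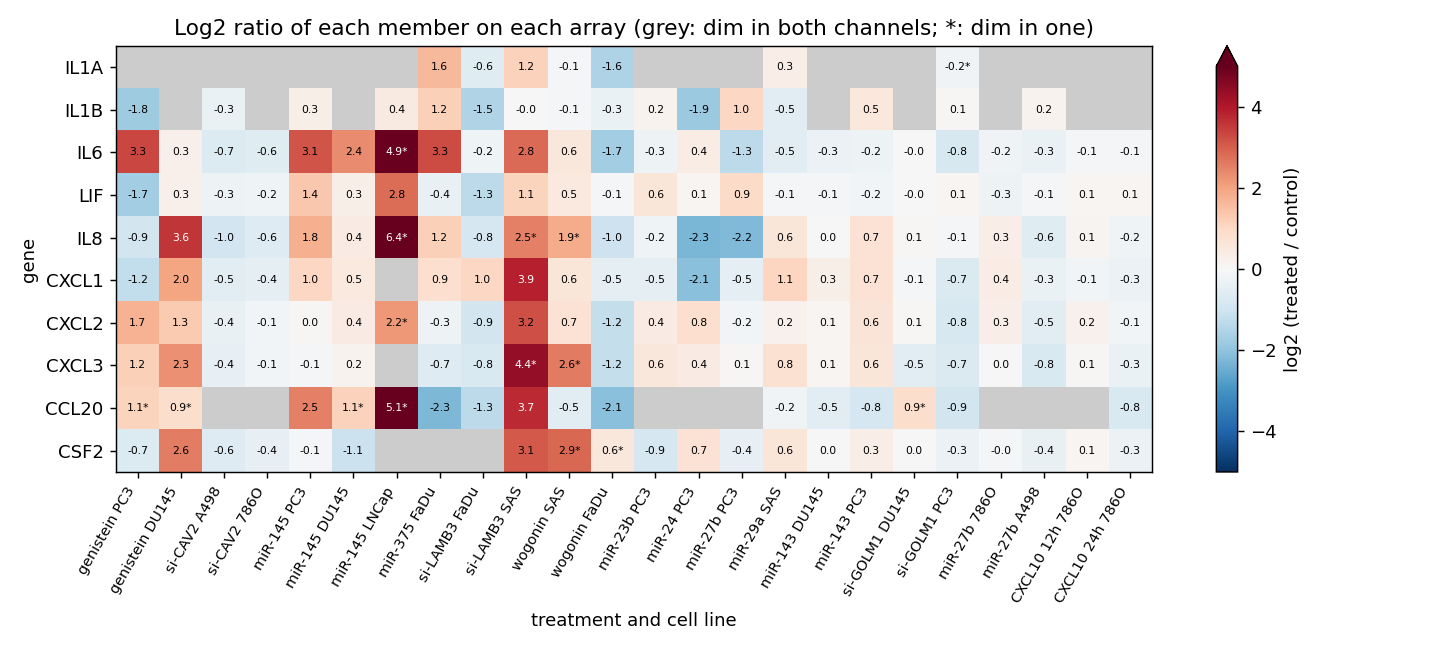
Log2 ratio of treated over control for the 10 members (rows) on the 24 arrays (columns, by treatment and line), with colour from blue (lower in treated cells) to red (higher), grey where both channels were dim and a star where 1 channel was dim. The reds are concentrated in the miR-145, si-LAMB3 SAS and genistein columns, and the 8 columns of the smaller design on the right stay within 1 of zero.

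miR-145 was given to 3 prostate lines, and IL6 was higher in the treated cells of each. In PC3, 5 of the 9 members tested passed 1 in either direction, against 13.9% of all genes tested on that array; in DU145 it was 3 of 8 against 5.65%, and in LNCap 5 of 6 against 8.96%. In DU145, 1 of the 3, CCL20, had a dim control and was tested only through the treated channel. In LNCap this held for 4 of the 5, and 4 further members were dim in both channels. Nothing is read from the DU145 and LNCap counts. Over the 3 arrays, limma called 1 of the 5 members tested, IL6, at an adjusted p under 0.05, against 6.65% of all genes, and 4 of the 5 had an unadjusted p under 0.05. In LNCap, IL6, IL8, CXCL2 and CCL20 entered this fit only through the treated channel, and members dim in both channels were left out. Nothing is read from these counts either.

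IL6, the acute-phase cytokine, read 4117 in control and 36342 in miR-145 PC3 cells, 285 and 1469 in DU145, and 7.02 and 215 in LNCap, where the control was not well above background. It was higher in treated cells of all 3 lines, with log2 ratios of 3.14, 2.37 and 4.93, and in LNCap the difference was at least 10.1-fold. In limma its mean log2 ratio was 3.48 ± 0.77 (SE, 3 arrays), adjusted p = 0.0329, with IL6 tested in LNCap only through the treated channel. That call was lost without any 1 of the 3 arrays (2.75 to 4.04, adjusted p = 0.0531 to 0.171, 4.04 and 0.0531 without DU145) and under normexp background correction (2.29, adjusted p = 0.0536). The DU145 value rests on the array whose treated channel also held KLK3 signal. What that KLK3 signal means for the IL6 value was not tested.

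IL8, the main neutrophil chemokine, read 776 and 2675 in PC3, 323 and 425 in DU145, and 4.75 and 408 in LNCap. Its log2 ratios were 1.79, 0.40 and 6.43. In LNCap the control was dim and the difference at least 19.2-fold; a second IL8 probe gave 3.44 there. The difference between lines was not tested. The mean of 2.87 ± 1.24 had an adjusted p of 0.2093 in limma.

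CCL20 read 51.1 and 293 in PC3, 8.75 and 19.3 in DU145, and 5.23 and 183 in LNCap. The controls of DU145 and LNCap were not well above background, which gave bounds of at least 1.52-fold and at least 8.61-fold. Its mean of 2.93 ± 0.93 had an adjusted p of 0.1001. LIF, which shares the IL6ST receptor chain with IL6, read 3035 and 7803 in PC3, 2937 and 3559 in DU145, and 249 and 1705 in LNCap, a mean of 1.47 ± 0.57 with an adjusted p of 0.1628. LIF was the only one of these 4 members with both channels of all 3 lines above background, and its ratios were 1.36, 0.28 and 2.77.

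The CXCL genes did not move as a group with IL8 on these arrays. CXCL1 gave 1.04 in PC3 and 0.49 in DU145 and was dim in both LNCap channels. CXCL2 gave 0.04 and 0.42, and 2.16 in LNCap, where the control was dim and a second probe gave 0.77. CXCL3 gave -0.10 and 0.18 and was dim in LNCap. CSF2 was the only member past 1 downward under miR-145, at -1.07 in DU145 (324 and 154).

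**Figure D2:**
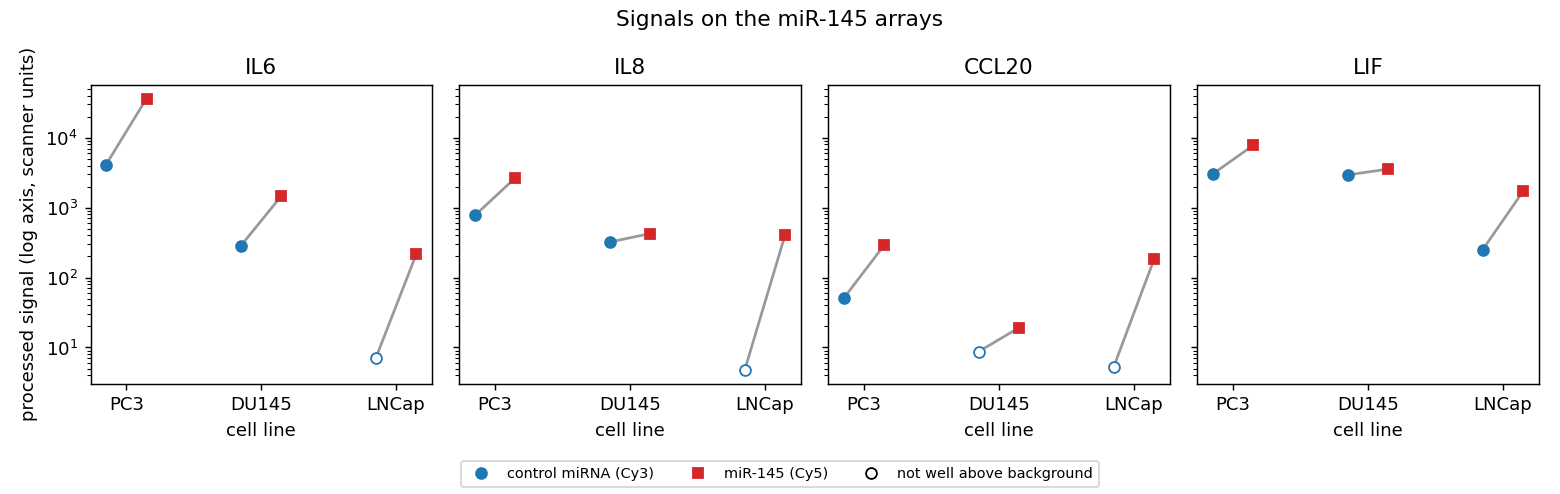
Processed signal (log axis, scanner units) of members in the control miRNA channel (blue) and the miR-145 channel (red) of the PC3, DU145 and LNCap arrays, with open symbols where the probe was not well above background. IL6 is higher in the treated channel of each line (36342 over 4117, 1469 over 285 and 215 over 7.02), whereas the IL8 gap in DU145 is small (425 over 323).

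Genes of the NF-κB pathway were given from a list of 18 subunits, feedback inhibitors and targets. Under miR-145, 16 were tested over the 3 arrays and limma called 5, against 6.65% of all genes, and all 5 upward: NFKBIZ (3.07, adjusted p = 0.0138), NFKBIA (2.24, adjusted p = 0.0104), ZFP36 (2.12), TNIP1 (1.86) and RELA (0.81). The list's median was 1.41 against -0.04 for all genes. NFKBIA, the inhibitor that NF-κB itself induces, had ratios of 2.78 in PC3, 0.96 in DU145 and 2.98 in LNCap. TNFAIP3, a deubiquitinase of the same feedback, had 3.17, 0.43 and 5.37, and the inhibitor of apoptosis BIRC3 1.83, 0.44 and 5.90. On single arrays, 11 of 18 list genes passed 1 upward in PC3 (8.29% of all genes did), 1 of 17 in DU145 (3.4%) and 11 of 16 in LNCap (6.68%), and the difference between lines was not tested. A squamous marker was also higher on these arrays: KRT14 gave 5.46 (with a dim control), 2.43 and 3.03 in the same order of lines (mean 3.64 ± 0.59, adjusted p = 0.0096 in limma). The summed signal of 5 squamous markers read 54.7 in control and 909 in treated PC3 cells, 47.6 and 118 in DU145, and 54.8 and 325 in LNCap. The part of these markers in the cytokine values was not tested. The cytokine TNF gave 2.97, 0.19 and 6.23 and the chemokine CCL2 2.58, 0.29 and 2.92 in the same order of lines, with CCL2 dim in both DU145 channels, and 0 of the 6 other cytokines tested were called. Of 9 receptors and antagonists tested, limma called OSMR, which pairs with IL6ST for oncostatin M (0.81, adjusted p = 0.0377), and the IL1 receptor antagonist IL1RN read 4.53, 1.39 and -0.32.

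Silencing of LAMB3, a chain of laminin-332, gave ratios above 1 for 9 of the 10 members in SAS, 2 of them with a dim control, against 14.6% of all genes in either direction and 8.11% upward, while in FaDu 4 of 9 passed, 3 of them downward, against 10.7%. limma over both lines called 0 of the 9 members tested, against 7.76% of all genes, and 1 had an unadjusted p under 0.05: CXCL1, with a mean of 2.48 ± 0.80 and an adjusted p of 0.0958.

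In SAS, CXCL1 read 503 in control and 7526 in si-LAMB3 cells, a log2 ratio of 3.90, and a second probe gave 3.31. CXCL2 read 437 and 4133 (3.24), and CXCL3 a dim 6.28 and 132, at least 5.77-fold higher. CCL20 read 122 and 1606 (3.72). Among the members with both channels above background, CXCL1, CCL20 and CXCL2 had the highest ratios in SAS, followed by CSF2, which read 79.8 and 677 (3.08). IL6 read 2321 and 16528 (2.83, second probe 1.98), and IL8 17.9, dim, and 102, at least 4.46-fold. IL1A (1.16) and LIF (1.10) passed the limit narrowly, and IL1B gave -0.02 from 4570 and 4494.

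In FaDu the same siRNA gave IL1B 15814 and 5561 (-1.51), LIF 2810 and 1123 (-1.32) and CCL20 327 and 133 (-1.30). CXCL2 (-0.92), IL8 (-0.82), CXCL3 (-0.77), IL1A (-0.61) and IL6 (-0.20) were below zero without passing the limit. CXCL1 alone was above 1 in FaDu (6526 and 13482, a ratio of 1.05), as it was in SAS. The second CXCL2 probe gave the opposite sign in FaDu, 0.43.

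In SAS, 9 of 17 NF-κB list genes passed 1 upward (8.11% of all genes did), among them BIRC3 (5.01) and NFKBIE (2.33). In FaDu 0 of 18 did (6.56% of all genes), and the difference between the lines was not tested. TNF (2.73 and -0.74), CSF3, which encodes G-CSF (4.61 and -0.46), and IL24 (2.47 and -1.51) were above 1 in SAS and below zero in FaDu. Over both lines limma called CXCR2, the receptor of IL8 and the CXCL members (1.30, adjusted p = 0.0156), and none of the others on the 3 lists. LIFR, the receptor of LIF, gave 1.18 ± 0.35 with an adjusted p of 0.0764. IL1RAP, the partner of IL1R1, went the other way, at -1.74 ± 0.48 with an adjusted p of 0.0623. LAMB3 itself read higher in SAS cells after silencing (11880) than in FaDu (3551).

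**Figure D3:**
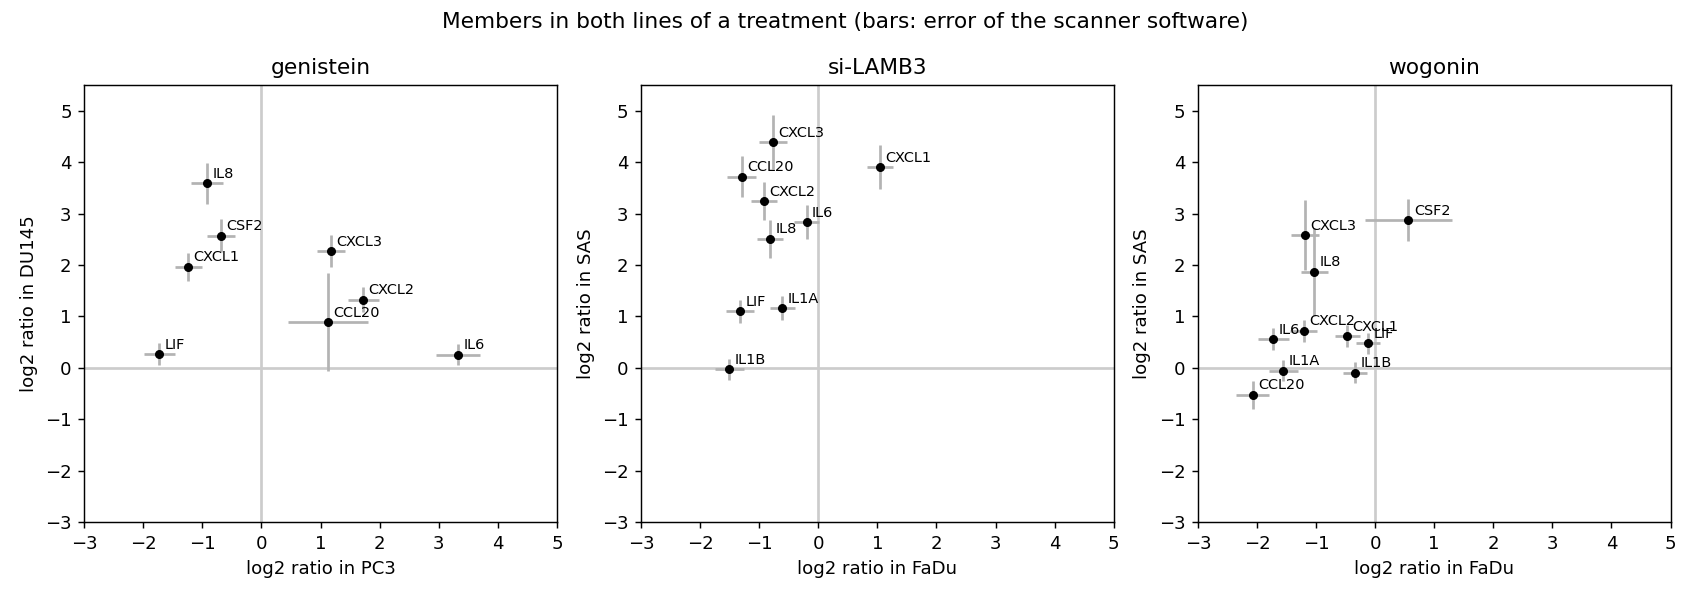
Log2 ratio of each member in 1 line (horizontal axis) against the other line of the same treatment (vertical axis) for genistein, si-LAMB3 and wogonin, with bars for the error given by the scanner software. Under si-LAMB3 the points other than IL1B (-0.02) lie above 1 in SAS, and those other than CXCL1 (3.90 and 1.05) lie below zero in FaDu. Under wogonin CXCL3 and IL8 lie on opposite sides of zero.

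Genistein gave ratios past 1 for most members in both prostate lines. By their brightest probes CXCL1, CXCL2 and CXCL3 passed 1 in both, CXCL1 in opposite directions. The difference between lines was not tested. In PC3, 7 of the 9 members tested passed 1, 4 upward and 3 downward, against 17.6% of all genes. Of these 7, CCL20 (12.7 and 27.7) had a dim control, was tested only through the treated channel and was too dim for a bound. In DU145, 5 of 8 passed, all upward, against 12.6%. limma over both lines called 0 of 8 members, 0 with an unadjusted p under 0.05, against 9.69% of all genes called.

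In PC3, IL6 read 146 and 1476, a log2 ratio of 3.33, whereas in DU145 it read 755 and 904 (0.26). IL8 showed the reverse order, with 108 and 57.1 in PC3 (-0.92) and 21.3 and 256 in DU145 (3.59). CXCL1 read 2689 and 1140 in PC3 (-1.24) and 390 and 1525 in DU145 (1.97). CXCL2 (1.72 and 1.33) and CXCL3 (1.18 and 2.27) were above 1 in both. Second probes gave -0.65 and 1.47 for CXCL1 and 0.57 and 1.02 for CXCL2, so in PC3 neither passed the limit. CSF2 gave -0.68 in PC3 and 2.57 in DU145, where it read 63.1 and 374.6. IL1B read 15964 in control and 4670 in genistein PC3 cells (-1.77), and it was dim in DU145. LIF gave -1.73 in PC3, but its second, dimmer probe gave -0.09 there. IL24, a cytokine of the IL10 family, was past 1 upward in both lines (1.47 and 2.82). Of the receptors, CCR6 was called lower (-0.88, adjusted p = 0.0122), and 0 of 17 NF-κB list genes were called.

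Wogonin gave ratios below -1 for most members in FaDu but for none in SAS. In SAS, 3 of 10 members passed 1, against 14.2% of all genes; these 3 had dim controls and were tested only through the treated channel, so nothing is read from that count. In FaDu 6 of 10 passed, all downward, against 10.9%. CCL20 (-0.52 and -2.07), IL1A (-0.05 and -1.55) and IL1B (-0.10 and -0.34) were below zero in both lines, and the difference between lines was not tested. limma called 0 of 10, with 0 at an unadjusted p under 0.05, against 3.53% of all genes. In FaDu, CCL20 read 2111 and 502 (-2.07), IL6 353 and 106.7 (-1.73), IL1A 2597 and 884 (-1.55), CXCL2 4337 and 1876 (-1.21), CXCL3 288 and 127 (-1.18) and IL8 1589 and 779 (-1.03). Of the 3 that passed in SAS, CSF2 read 15.2 and 111, at least 4.21-fold higher, and CXCL3 6.25 and 37.4, at least 1.42-fold higher. IL8 read 5.95 and 21.7 in SAS, too dim for a bound. 0 of 17 NF-κB list genes were called over both lines.

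Among treatments on a single array, miR-375 in FaDu passed 1 for 5 of 9 members, against 22.6% of all genes. IL6 read 85.0 and 809 (3.25), IL1A 629 and 1950 (1.63), IL1B 6860 and 15877 (1.21) and IL8 192 and 438 (1.19). With the mean of the other treatments on the slide subtracted, IL8 reversed to -0.19. CCL20 went the other way, with 580 and 121 (-2.26). The summed squamous marker signal was also lower on this array, 176980 in control and 45722 in treated cells, and its part in the values was not tested. In PC3, miR-24 passed 1 for 3 of 8 members, against 25.6% of all genes, all downward: IL8 (132 and 26.9, -2.30), CXCL1 (2979 and 704, -2.08, second probe -0.91) and IL1B (3364 and 918, -1.87). miR-27b in PC3 also passed for 3 of 8, against 13.9%, with IL8 at -2.22 (110 and 23.5), IL6 at -1.30 (202 and 82.1) and IL1B at 1.03 (2616 and 5331). IL8 was thus lower after both miRNAs, whose arrays share nearly the same control channel. miR-23b passed for 0 of 8, against 11.5%, and had IL8 at -0.21. miR-29a in SAS passed for 1 of 10, against 10.5%: CXCL1, with 14316 and 30414 (1.09).

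For the remaining treatments 0 members passed 1 on any array. These were si-CAV2 in A498 (0 of 8, against 3.22% of all genes) and 786O (0 of 7, 2.91%), miR-143 in DU145 (0 of 8, 4.27%) and PC3 (0 of 9, 2.94%), and si-GOLM1 in DU145 (0 of 8, 1.7%) and PC3 (0 of 10, 4.08%). They also included miR-27b in 786O (0 of 7, 4.1%) and A498 (0 of 8, 3.98%), and CXCL10 in 786O at 12 h (0 of 7, 3.1%) and 24 h (0 of 8, 3.16%). limma over the arrays of each called 0 of 7 members for si-CAV2 (0.13% of all genes called), 0 of 8 for miR-143 (0.366%), 0 of 8 for si-GOLM1 (0.59%), 0 of 7 for miR-27b in the renal lines (0.996%) and 0 of 7 for CXCL10 (0.23%). At an unadjusted p under 0.05 the count was 2 for si-GOLM1 and 0 for the other 4. The 2 were CXCL3 (-0.63 ± 0.21, adjusted p = 0.1925) and IL6 (-0.42 ± 0.17, adjusted p = 0.2485). IL8 after si-CAV2 came nearest to the limit, at -0.97 in A498 (357 and 182). All members tested after si-CAV2 were below zero, from -0.97 to -0.27 in A498 and from -0.65 to -0.12 in 786O. Their medians were -0.47 and -0.40, against 0.02 and 0.01 over all genes. In limma the SE of these members ran from 0.70 (LIF) to 1.53 (IL8).

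**Figure D4:**
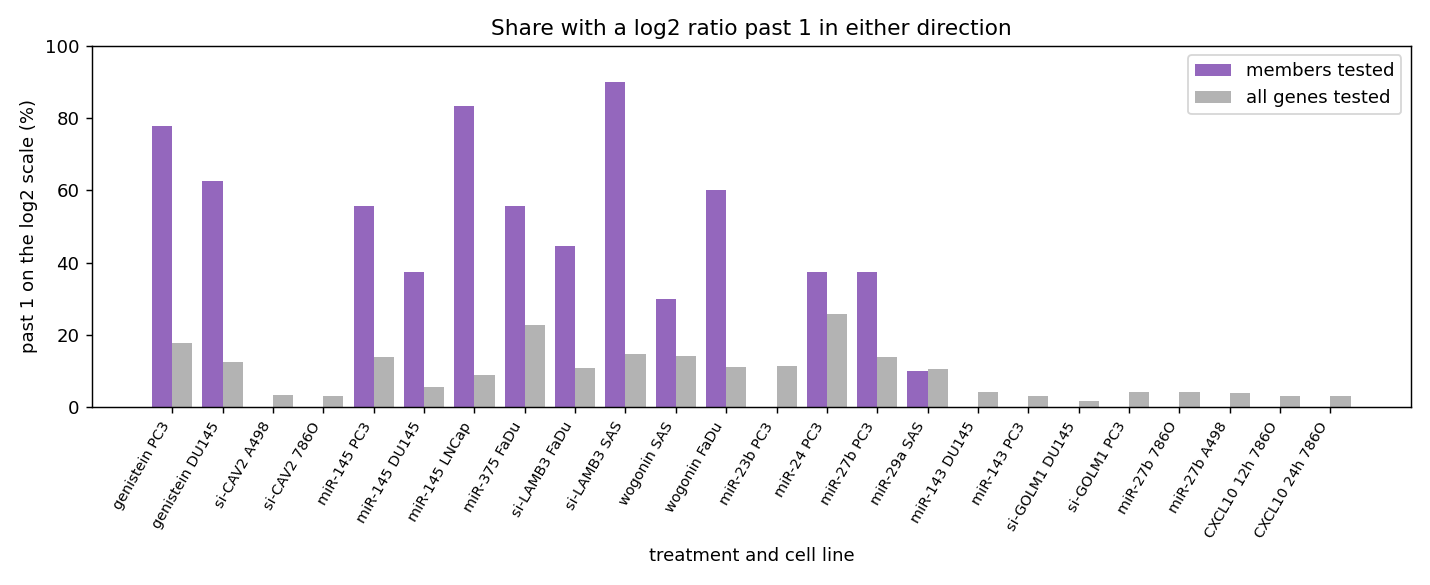
Percent of the members tested (purple) and of all genes tested (grey) with a log2 ratio past 1 in either direction on each of the 24 arrays. The purple bar stands highest for si-LAMB3 SAS (9 of 10 members, against 14.6% of genes) and is zero for miR-23b and for 10 arrays with 1.7% to 4.27% of genes past the limit.

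The level of a member in control cells was taken as the log2 Cy3 signal minus the 75th percentile of the array, over 14 control samples of the larger design and 7 of the smaller. These levels set lines and cultures apart for the same gene and are not compared between genes.

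IL1A was well above background only in control cells of FaDu (1.55 ± 1.57, SD, n = 3) and SAS (0.55 ± 1.15, n = 3), and its mean lay between -6.99 and -4.72 in the other lines of both designs. FaDu and SAS did not differ beyond their spread. IL1B was high in FaDu (4.99 ± 1.30), SAS (4.14 ± 0.77) and PC3 (3.87 ± 1.25, n = 3), low in A498 (-1.25, 1 sample) and LNCap (-4.22, 1 sample), and not above background in DU145 (-6.77) or 786O (-6.76). The first 3 lines overlapped. CCL20 had its highest means in FaDu (0.90 ± 1.73) and SAS (-0.32 ± 3.07), with the other lines of the larger design between -6.39 and -4.59.

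In limma, control samples of FaDu and SAS exceeded those of PC3 and DU145 for 3 of 10 members, against 33.2% of all genes: IL1A (7.54 ± 0.56, adjusted p = 8.5e-06), IL1B (6.02 ± 0.56, adjusted p = 3.6e-05) and CCL20 (5.55 ± 1.05, adjusted p = 0.0030). Dim samples make these fitted values rough: all 5 prostate samples were dim for IL1A, 4 of 5 for CCL20 and the 2 of DU145 for IL1B. With dim samples raised to the lowest signal well above background on their array, the differences were at least 73.1-fold, 34.4-fold and 43.0-fold for IL1A, CCL20 and IL1B. PC3 minus DU145 called 1 of 9, IL1B, against 21.3%, and it was at least 703-fold higher in PC3 (fitted 10.64 ± 0.82 with DU145 dim). FaDu minus SAS called 0 of 10, against 23.1%, with 4 at an unadjusted p under 0.05 (CSF2, CXCL3, IL6 and IL8).

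LNCap control cells were low for most members. IL6, IL8, CXCL1, CXCL2, CXCL3, CCL20, CSF2 and IL1A were not well above background in its 1 control sample, and LIF (-0.82) was. LNCap minus the mean of PC3 and DU145 called 4 of 9 members, against 19.8% of all genes. LIF was above background in LNCap and differed by -3.34 ± 0.88. CXCL1, CXCL2 and IL6 were dim in LNCap and at least 137-fold, 90.7-fold and 32.8-fold lower there (fitted -8.00 ± 2.02, -8.11 ± 1.65 and -6.02 ± 1.90, the last with an adjusted p of 0.0499). With normexp correction these 3 calls were lost (-3.89, -3.59 and -2.17), and the IL6 call was lost under most alternatives. The single LNCap sample is assumed to vary like the other lines. A498 minus 786O, with 1 sample a line and the spread taken from the other lines, called 1 of 8, against 7.2%. This was IL1B, which was dim in 786O and at least 20.1-fold higher in A498 (fitted 5.51 ± 1.26, adjusted p = 0.0241), a call lost with normexp (1.45, adjusted p = 0.6746). IL6 was high in both renal lines of the larger design, at 3.26 in A498 and 3.39 in 786O. In the smaller design it was 2.96 in A498 and, in 786O, 3.33 with control miRNA but 0.92 in untreated cells.

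**Figure D5:**
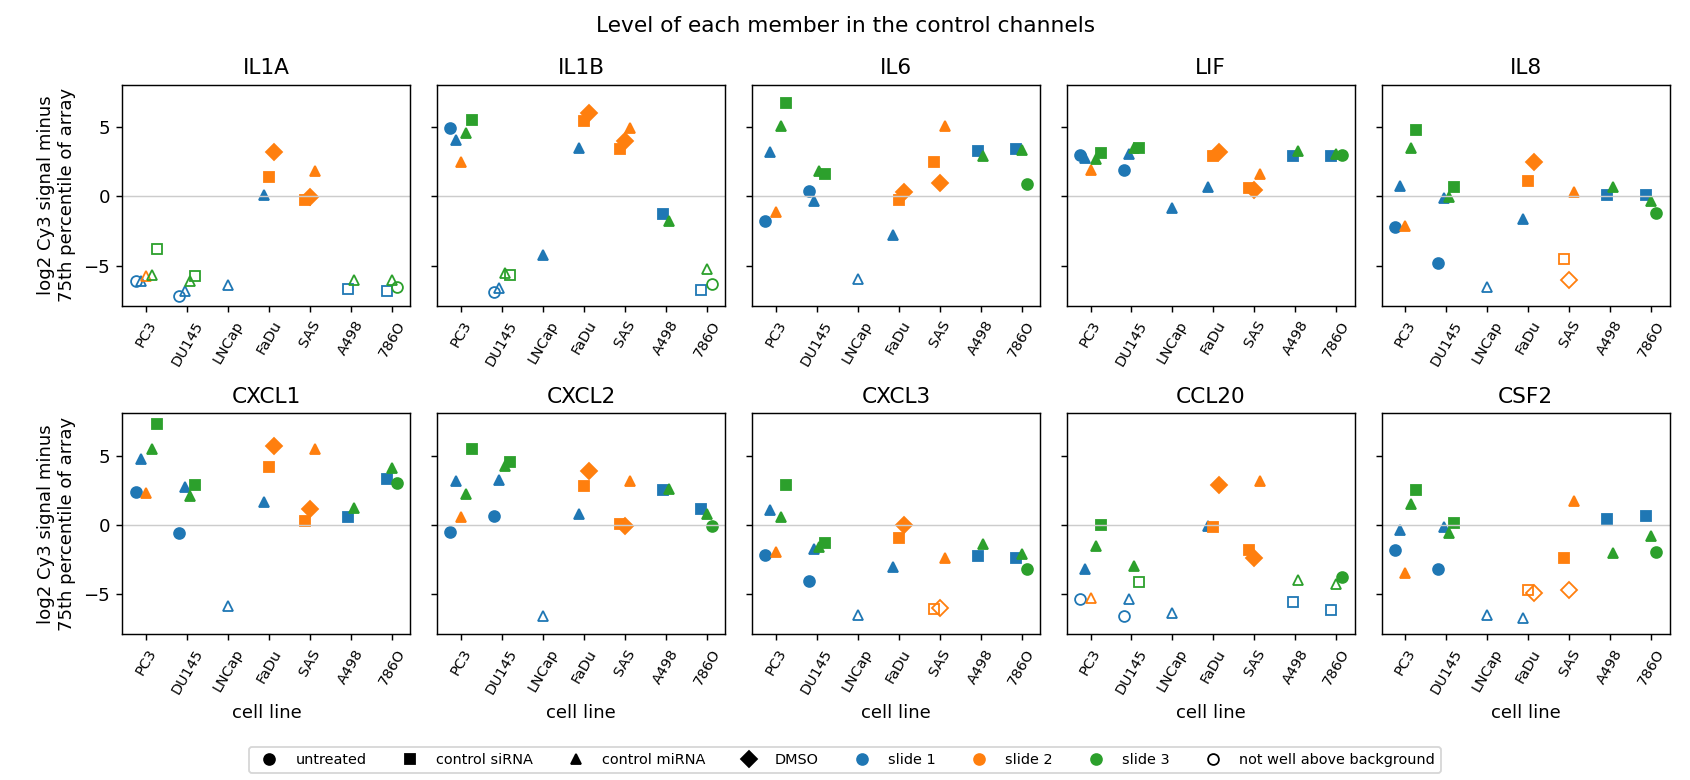
Level of each member in the control channels (log2 Cy3 signal minus the 75th percentile of the array) by line, with marker shape for the kind of control, colour for the slide and open symbols where the probe was not well above background. Points of 1 line lie several log2 units apart for IL6 in PC3 (-1.80 to 3.18 on the larger design) and IL8 in DU145 (-4.78 to -0.12).

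Control cultures of the same line differed more in these genes than in most others. In the larger design, the range between control samples exceeded 2 log2 units for 8 of 9 members in PC3, against 7.62% of all genes, for 5 of 7 in DU145 (5.36%), 9 of 9 in FaDu (7.49%) and 8 of 10 in SAS (5.16%). The median range of the members was 3.01 in PC3, 2.62 in DU145, 3.11 in FaDu and 3.90 in SAS, against 0.69, 0.46, 0.64 and 0.51 for all genes. In the smaller design the counts were 2 of 9 in PC3 (2.76%), 0 of 8 in DU145 (3.59%) and 1 of 8 in 786O (12.6%).

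IL6 in PC3 control cells read 146 in untreated cells, 4117 with control miRNA on the first slide, a mean of 222 with control miRNA on the second, and 7506 with control miRNA and 28706 with control siRNA on the third. The latter 2 are the samples with KRT6A and KRT14 signal. CSF2 in SAS had the widest range, 6.46 log2 units, and IL8 in DU145 differed by 4.66 between untreated cells (21.3) and control miRNA (323). In 786O, the untreated controls of the CXCL10 arrays read IL6 at 165 at 12 h and 1107 at 24 h. The kind of control, the slide and the culture cannot be told apart here.

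The treated level was then set against all control samples of its line on the same array design. Of 54 member and array pairs past 1 in lines with over 1 control sample, 32 had a treated level within the range of those controls and 22 outside it. The 7 upward pairs of miR-145 in PC3 and DU145 lay above every control sample of their line on that design. In PC3 the own control was already the highest for IL6, IL8, CXCL1 and CCL20, and in DU145 for CCL20. Any upward ratio placed those pairs above all controls, so nothing is read from their place. For genistein, 10 of 12 lay within, including IL6 in PC3 (1.54, controls -1.80 to 3.18) and IL8 in DU145 (-1.19, controls -4.78 to -0.12), and LIF and CXCL1 in PC3 lay below all controls. All 9 wogonin pairs lay within. For the upward genistein pairs the own control was the lowest of its line, and for the wogonin pairs in FaDu the highest. For CXCL1 under genistein in PC3 the own control (2.40) was near the lowest (2.33), so nothing is read from its place. Place thus depends on where the own control lay, and treatments are not compared by it. For si-LAMB3 in SAS, IL6, CXCL2, CXCL3 and LIF lay above all controls and the other 5 within. IL8 after miR-24 and miR-27b lay below all PC3 controls. The own control (-2.11) was near the lowest (-2.24), so nothing is read from that place.

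Across arrays, members followed each other to different degrees, given here as descriptions with no test, since arrays share lines, slides and, in part, controls. CXCL2 and CXCL3, neighbours on chromosome 4, had the same sign on 20 of 23 arrays (Pearson's r = 0.91, Spearman's rho = 0.93). IL8 and CXCL1 had the same sign on 20 of 23 (0.81 and 0.82). CXCL1, CXCL2 and CXCL3 are close paralogs, and whether their probes share targets was not tested. IL1B stood apart from CXCL2 (r = -0.08, 16 arrays) and IL6 (0.08).

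The mean log2 ratio of the tested members over the 16 arrays of the larger design was set against 16572 genes measured on all of them. The members averaged differed between arrays. The highest mean, 3.65 for miR-145 in LNCap, came from 6 members, 4 of them tested only through the treated channel. How far the likeness below rests on that array was not tested. Outside the members, the 10 most alike with a gene symbol were TNFAIP3 (r = 0.91), BIRC3 (0.89), RELB (0.89), NFKBIE (0.87), NEURL3 (0.85), KLF6 (0.84), NFKB2 (0.82), ZNF697 (0.82), PLAUR (0.82) and ZFAND2A (0.82). Of these, TNFAIP3, BIRC3, RELB, NFKBIE and NFKB2 were on the NF-κB list already.

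Second probes, read for CXCL1, CXCL2, IL6, IL8 and LIF, mostly stood near the first, with median absolute differences of 0.15 to 0.39 on the log2 scale. The widest gap was that of IL8 on the miR-145 LNCap array (6.43 and 3.44), and LIF had opposite signs on 7 of 23 arrays. The first IL6 probe lies at chr7:22771207-22771266 and the first IL8 probe at chr4:74609265-74609324 of hg19, both as listed by the array maker.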

How the data were processed

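Expression was measured on 24 two-colour Agilent arrays of 2 designs. Per the file headers, the authors' software (Agilent Feature Extraction 10.7.3.1, annotation on hg19) subtracted background, detrended and dye-normalized each array, and gave processed intensity per channel and the log10 ratio of Cy5 over Cy3 with its error. The deposited log10 value table was identical, and the scanner's p-values were not used. The deposited spot flags were used as given. Ratios were multiplied by 3.32 to the log2 scale. Control spots and outlier spots (419 to 614 of 58717 per array) were left out, spots of a probe averaged, and the brightest probe stood for its gene. Genes needed at least 0.5 of their spots well above background in 1 channel. A fold against a dim channel is a lower bound, from the lowest signal well above background on that array, and is open to dye bias, since dyes were not swapped.

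limma 3.58.1 (R 4.3.3) fitted mean log2 ratios per treatment and control levels per line, with all arrays of a design in the fit and Benjamini-Hochberg adjustment over all genes tested, at 0.05. Lines, and for CXCL10 the times in 1 line, stood as replicates. Each SE and p-value rests on the spread between these samples, pooled over all treatments of a design, or all lines for control levels. It is not the spread of the arrays of 1 treatment alone. The pooled spread may be technical, and the number of arrays limits precision. In simulated data (16572 genes) the fit recovered 45 of 50 genes changed by log2 2 for genistein and 47 of 50 for miR-145. At log2 1 it recovered 24 of 50 and 35 of 50. The changed genes were drawn from all genes, so these rates do not give the power for the members. The SE of the members under genistein ran from 0.70 (LIF) to 1.54 (IL8).

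The members and companion lists were chosen with earlier results of these data known. All 10 members are named, and companion genes where past 1 in the same direction on at least 2 arrays of 1 treatment or as receptors of a member. TNF, CSF3, BIRC3, NFKBIE and IL24 under si-LAMB3 were chosen after their values were seen. Alternatives were normexp with loess, centring, subtraction of the slide mean, other probe, filter and size rules, quantile scaling, slide as a block and leaving out each array. Some marker genes are not reported here.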

Additional observations from a re-analysis of the deposited data

Results flagged for a closer look

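In 5 cases a member was past 1 in opposite directions in the lines of 1 treatment, as measured on 1 array each, and the difference itself was not tested. Under genistein the log2 ratio of CXCL1 was 3.21 higher in DU145 than in PC3, where its second probe gave -0.65 and did not pass the limit. Under si-LAMB3, CCL20 was 5.02 and LIF 2.42 higher in SAS than in FaDu. Under wogonin, IL8 was 2.90 and CXCL3 3.77 higher in SAS than in FaDu, both with a SAS control that was not well above background. The treated levels of CXCL1 in DU145, of CCL20 in SAS and of IL8 and CXCL3 in both wogonin lines lay within the range of the control samples of the line.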

How the results depend on the processing

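No paired analysis was possible because each treatment and line has 1 array, so that the groups share a single replicate number and no second pair exists. Of the fitted values of members, 1060 kept their direction and side of the threshold over the alternatives run, 17 lost a call and 12 gained one; of the single-array values past 1, 207 moved by less than the software error, 76 by more and 1 reversed, IL8 after miR-375 in FaDu (-0.19 with the mean of the other treatments on the slide subtracted). The 1 member called for miR-145 became 0 with normexp and loess, with no filter on dim probes, with both channels required above background, and without any 1 array (0 to 0). With the slide mean subtracted IL6 lost its call (2.38, adjusted p = 0.0658) and LIF gained one (1.93, adjusted p = 0.0491). Without the DU145 array genistein was left with PC3 alone, where IL1B (-1.77), dim in DU145, was fitted in addition. The si-GOLM1 count went from 0 to 1 with normexp (CXCL3, -0.50). The 19 member and array pairs below -1 became 12 with normexp, 33 with the slide mean subtracted, 50 at a limit of 0.5 and 11 at 1.5. For control levels, FaDu minus SAS went from 0 to 1 with every channel as its own sample, and to between 0 and 2 leaving out 1 sample (1 without FaDu control miRNA, 1 without SAS DMSO and 2, IL8 and CXCL3, without SAS control miRNA). PC3 minus DU145 went from 1 to 3 in the smaller design alone (IL1B, IL8 and CXCL1). With normexp, LNCap against PC3 and DU145 fell from 4 to 1 and A498 minus 786O from 1 to 0; normexp adds an offset of 50 to dim signals. The causes were otherwise not tested. Dim signals left IL1A tested on 7 of the 24 arrays and IL1B and CCL20 on 16 each. Members with a ratio past 1 against a dim control were IL6, IL8, CXCL2, CXCL3, CCL20 and CSF2.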

Other observations

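Outside the members, the interferon-induced genes IFIT1, IFIT2 and ISG15, chosen after their values were seen, were higher after miR-145 in all 3 prostate lines, with mean log2 ratios of 5.29 ± 0.25, 7.29 ± 0.49 and 4.89 ± 0.27 (SE, 3 arrays). In limma their adjusted p-values were 3.1e-05, 9.2e-05 and 4.4e-05.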
